A study of Mus musculus with 78 samples.

Results

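The data set compares flank tissue of mice that carried an adenovirus for VEGF-A164 (Ad-VEGF) and received the antibody DC101, at day 20, with control flank at day 0. It takes 8 DC101 arrays and 8 control arrays, 16 of the 78 arrays of the series, chosen by their labelled source, and all 14718 genes that passed the filter on dim probe sets. The question is which of the day 20 changes were still there under DC101. The 8 arrays of untreated Ad-VEGF flank and the 8 of G6-treated Ad-VEGF flank at day 20 are set beside it for that purpose.

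The mice were female athymic nude mice, Crl:NU(NCr)-Foxn1nu, of 4 to 6 weeks, so every group lacks a normal thymus and the T cells that depend on it. In the virus groups Ad-VEGF-A164 was injected into the flank skin, and the same animals were also injected in the ear. DC101, a rat antibody to mouse VEGF receptor 2 (VEGFR2), was given at 20 mg per kg. Untreated Ad-VEGF mice are labelled as receiving no antibody. G6 was given at 10 mg per kg, and the labels count it among antibodies against VEGF receptors without giving it a target of its own. Control flank is labelled only as control at day 0: the labels do not say whether it was injected, and there was no empty vector, so the virus, its insert, injury by injection and 20 days of age cannot be told apart in any comparison with it. Groups had at least 5 animals by the design text, and the 8 arrays are not matched to animals in the labels. Tissue of 1 animal may therefore be on more than 1 array, which would make p-values too small.

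VEGF-A is the secreted ligand that drives sprouting of blood vessels. It binds VEGFR1, encoded by Flt1, and VEGFR2, encoded by Kdr, on endothelial cells, and most of its growth signal runs through VEGFR2, the receptor that DC101 blocks. In skin, VEGF-A overexpression is known for dilated, leaky mother vessels, which then develop into capillary tufts, malformations and feeding arteries and veins. Sprouting tip cells express genes such as Esm1 and Kcne3, while pericytes and smooth muscle cells clothe the maturing vessel.

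Levels below are log2(signal + 16), where signal is the authors' MAS5 intensity. Differences are differences of these levels, with the standard error (SE) of 1 limma model over all 78 arrays. A gene is called when its adjusted p (Benjamini-Hochberg over all genes) is under 0.05. The filter level of 331.2 in signal is 8.44 on this scale. A dimmer group with all its arrays under that level has only a bound, and the fold is then also given against the level as "at least". In whole tissue, fewer cells of a type and less RNA per cell cannot be told apart.

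Several arrays stood apart. DC101 arrays 68 and 72 correlated less with their own group (r of 0.9181 and 0.8917) than with controls (0.9223 and 0.9305), and their mean level of 26 skeletal muscle genes was 15.88 and 15.96, against 12.61 to 14.08 in the other 6 DC101 arrays and 14.78 to 16.18 in controls. DC101 array 66 had a Vegfa level of 10.18 and a mean pan-endothelial level of 10.74, both inside the control ranges (9.49 to 10.91 and 10.20 to 11.05). Untreated arrays 51 and 52 had the highest Vegfa of their group, 14.64 and 14.72, and a mean hair follicle level of 7.60 and 7.58, against 11.39 to 13.43 in the other 6. The 3' to 5' ratio of Actb, a measure of RNA integrity and labelling, ran from 1.35 to 2.26 in DC101 arrays and from 1.21 to 1.5 in controls, and that of Gapdh from 0.799 to 1.07 and from 0.772 to 0.859. Markers of keratinocytes, fibroblasts, endothelium, muscle, fat, hair follicle, macrophages and mast cells were above the filter level on all 8 DC101 arrays.

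DC101 flank at day 20 differed from control flank at 2244 genes called higher, 15.2% of those tested, and 2220 called lower, 15.1%. At a 2-fold minimum these were 468 and 555. The median difference over all genes was 0.06. Vessel, matrix, macrophage, antigen presentation and epidermal genes made up much of what rose among the gene lists. Milk protein, fat, respiratory chain, skeletal muscle and some glycolysis genes made up much of what fell, though the muscle calls depended on the fit. With the Actb and Gapdh 3' to 5' ratios as covariates the calls were 1284 higher and 1191 lower, and the part of RNA quality in the difference was not tested further. Without DC101 arrays 68 and 72 they were 3086 and 2601.

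**Figure D1:**
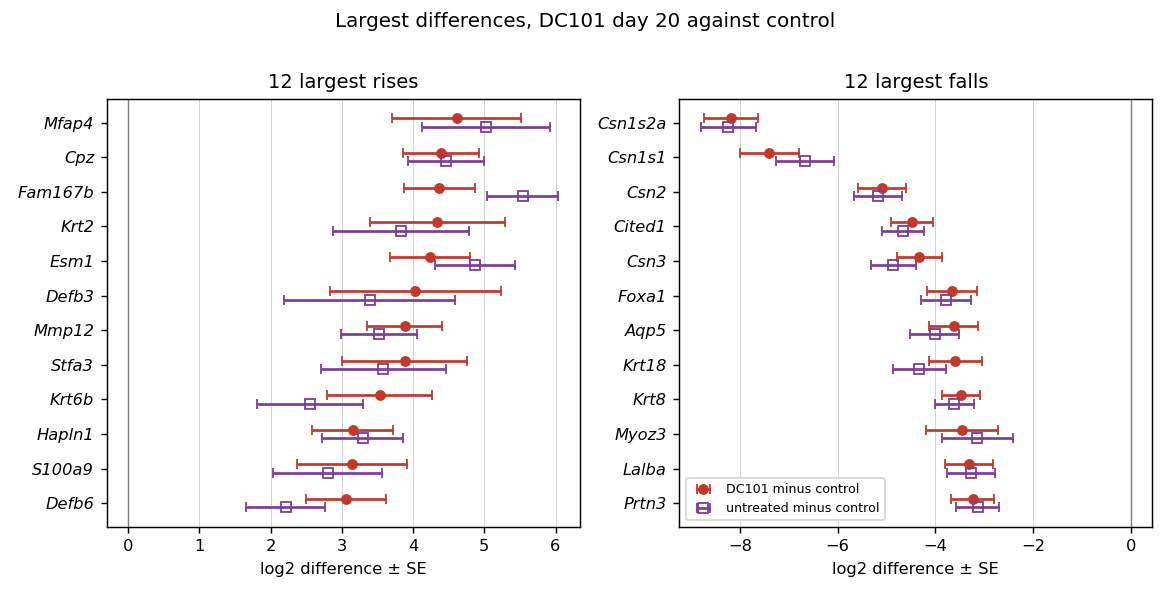
Log2 difference with its SE for the 12 largest rises and the 12 largest falls among genes called in DC101 day 20 flank (filled circles, DC101 minus control), with the untreated minus control difference of the same genes (open squares), n = 8 arrays a group. The rises run from 3.06 (Defb6) to 4.61 (Mfap4) and the falls from -3.24 (Prtn3) to -8.18 (Csn1s2a) under DC101.

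Of the genes that fell furthest, the milk proteins Csn1s2a, Csn1s1, Csn2 and Csn3 are 4 caseins, and Csn1s2a, Csn1s1 and Csn2 are neighbours on mouse chromosome 5. In the mammary gland casein transcription is known to depend on prolactin acting through STAT5, which binds palindromes of the form TTCNNNGAA. The 250 bases before the RefSeq start (build GRCm38.p6) of these genes are shown because they moved together, with any TTCNNNGAA in capitals. Mmp12, the macrophage elastase and the gene with the largest rise in the list of metalloproteinases and proteases, is shown with any TGACTCA on either strand, the AP-1 site, in capitals. It is the window of the later of its 2 starts in the RefSeq table.
Csn1s2a, chr5:87774200-87774449, plus strand: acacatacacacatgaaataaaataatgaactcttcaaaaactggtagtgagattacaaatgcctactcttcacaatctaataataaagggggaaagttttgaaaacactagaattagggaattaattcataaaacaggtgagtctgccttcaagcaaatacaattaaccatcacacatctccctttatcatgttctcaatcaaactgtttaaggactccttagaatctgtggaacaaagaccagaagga
Csn1s1, chr5:87665958-87666207, plus strand: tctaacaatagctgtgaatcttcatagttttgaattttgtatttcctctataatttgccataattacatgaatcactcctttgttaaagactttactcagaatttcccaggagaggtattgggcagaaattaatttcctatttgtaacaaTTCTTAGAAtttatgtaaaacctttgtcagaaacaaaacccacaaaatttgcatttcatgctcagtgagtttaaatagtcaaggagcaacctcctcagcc
Csn2, chr5:87699426-87699675, minus strand: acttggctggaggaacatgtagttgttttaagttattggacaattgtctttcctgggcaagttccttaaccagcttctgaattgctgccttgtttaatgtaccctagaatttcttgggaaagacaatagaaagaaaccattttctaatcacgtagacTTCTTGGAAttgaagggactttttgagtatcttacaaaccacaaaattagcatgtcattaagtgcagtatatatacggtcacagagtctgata
Mmp12, chr9:7347124-7347373, plus strand: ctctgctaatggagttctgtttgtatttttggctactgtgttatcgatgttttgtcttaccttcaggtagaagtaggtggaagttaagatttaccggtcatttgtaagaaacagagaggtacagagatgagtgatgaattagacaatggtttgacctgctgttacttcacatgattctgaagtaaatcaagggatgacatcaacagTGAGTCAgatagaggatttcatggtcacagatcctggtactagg
Csn1s1 and Csn2 each hold 1 TTCNNNGAA, starting 100 and 93 bases before the start, and the Csn1s2a window holds 0. Mmp12 holds 1 AP-1 match, 44 bases before the start, read here on the opposite strand. TTCNNNGAA occurs in 7.02% of the 32851 promoter windows of this length in the table, and TGACTCA in 4.46%. A match is a description of these letters and not a measured site.

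The ligand and its receptors were examined as the check of the model. By its brighter probe set Vegfa stood at 10.18, 12.21 and 13.36 (lowest, median and highest of 8 arrays) in DC101 flank, against 9.49, 10.18 and 10.91 in control flank. It was 2.06 higher (SE 0.39, adjusted p = 3.6e-05), above every control array on 7 of 8 DC101 arrays, with array 66 the exception. The other Vegfa probe set went the opposite way, 1.19 lower on the log2 scale (-1.19, adjusted p = 5.6e-07). Which probe set reads the injected transcript was not tested. Between DC101 and untreated flank the brighter probe set differed by -0.61 (95% interval -1.38 to 0.16, adjusted p = 0.36), and that interval holds both an equal and a lower level under DC101.

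Both VEGF-A receptors rose. Flt1 had 9.98, 11.46 and 13.01 in DC101 flank, against 9.40, 10.38 and 10.57 in control flank, a difference of 1.46 (SE 0.30, adjusted p = 0.00013). Kdr, the target of DC101, had 10.60, 11.82 and 13.06 in DC101 flank, against 10.06, 10.83 and 11.11 in control flank, a difference of 1.14 (SE 0.26, adjusted p = 0.00058). On each gene 7 of 8 DC101 arrays lay above every control array, and array 66 lay among the controls. Flt4, the receptor of lymphatic endothelium (VEGFR3), rose by 1.61 (SE 0.34, adjusted p = 0.00017; its other probe set 0.40, adjusted p = 0.4), and Tie1, the partner of the angiopoietin receptor, by 1.52 (SE 0.38, adjusted p = 0.0015). Of the 14 measured VEGF ligands, receptors and angiopoietins 9 rose and 2 fell, with a median difference of 0.91. The falls were in Vegfb (-1.31) and Angpt1 (-0.59), the ligand that quiets vessels, while its antagonist Angpt2 rose by 0.92. With the 3' to 5' ratios as covariates neither fall was called (Vegfb -0.53, adjusted p = 0.18; Angpt1 -0.40, adjusted p = 0.075). Pgf, a ligand of VEGFR1, was not called (0.64, SE 0.44, adjusted p = 0.28), and its groups overlapped at 6.57, 8.45 and 9.51 under DC101 and 5.98, 7.53 and 9.33 in control.

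**Figure D2:**
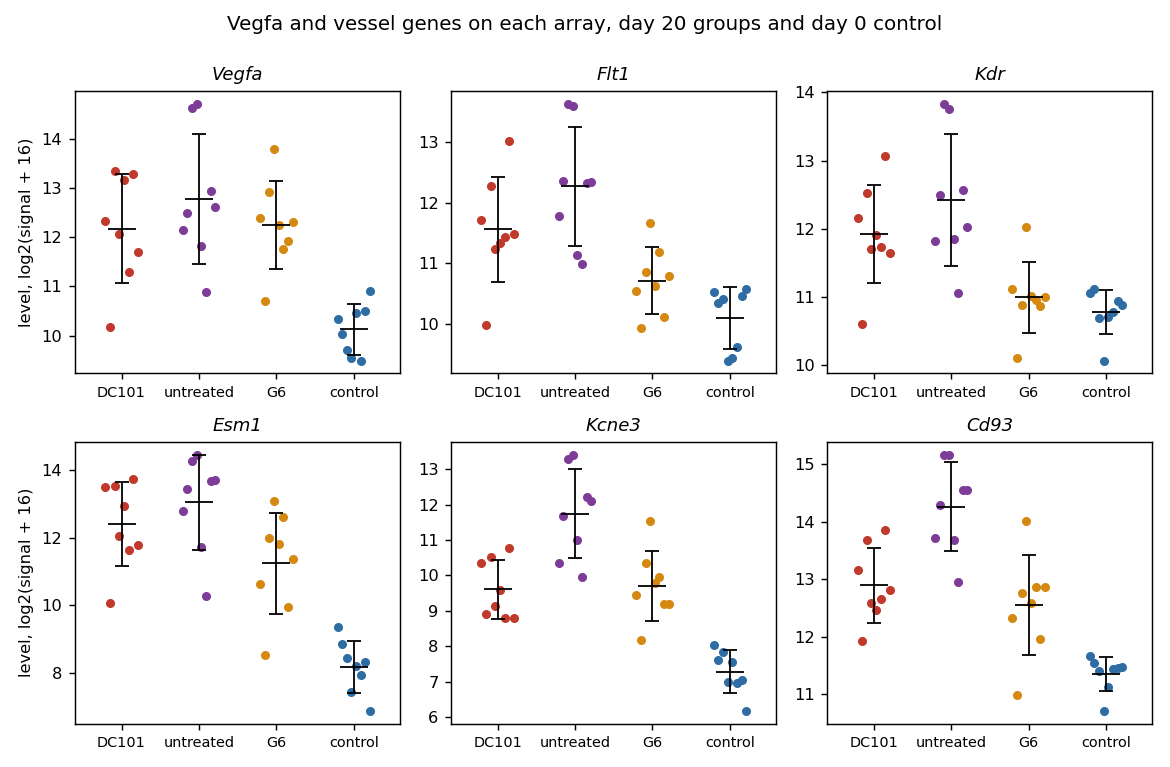
Level, log2(signal + 16), of Vegfa and 5 vessel genes on each array of DC101, untreated and G6 flank at day 20 and of control flank at day 0. Points are arrays, the bar is the mean and the whiskers are the SD (n = 8 each). Esm1, Kcne3 and Cd93 lie above every control array on all 8 DC101 arrays, while Kcne3 and Cd93 lie below the untreated mean on all 8.

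Most pan-endothelial genes were higher under DC101 than in control. Against control, 28 of the 34 pan-endothelial genes measured rose, 1 fell, and the median difference was 1.05. Pecam1 (CD31, a junction protein of all endothelium) had 10.41, 11.26 and 12.25 in DC101 flank, against 9.49, 10.32 and 10.80 in control flank, a difference of 1.07 (SE 0.31, adjusted p = 0.0064). Emcn, the sialomucin of capillaries and veins, rose by 1.81 (SE 0.33, adjusted p = 1.8e-05). Ushbp1, a member of the same list, rose by 1.66 (SE 0.41, adjusted p = 0.0013). Cd93, a receptor on angiogenic endothelium, had 11.92, 12.74 and 13.85 in DC101 flank, against 10.71, 11.45 and 11.67 in control flank, and all 8 DC101 arrays exceeded every control (1.54, SE 0.31, adjusted p = 9.2e-05). Its other probe set was not called (0.54, adjusted p = 0.09). Aplnr, the apelin receptor of endothelium, rose by 1.95 (SE 0.30, adjusted p = 7.5e-07), again on 8 of 8 arrays. The endothelial fall was in Vwf, at -0.92, and it was not called with the 3' to 5' ratios as covariates (-0.34, adjusted p = 0.48).

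Tip-cell and VEGF-induced genes rose at 16 of 30 members with 0 falls, and 20 had an unadjusted p under 0.05 in that direction. The median difference was 0.67. Esm1, an endothelial proteoglycan of tip cells, had 10.07, 12.50 and 13.73 in DC101 flank, against 6.87, 8.26 and 9.37 in control flank, a difference of 4.24 (SE 0.56, adjusted p = 4.2e-08). Kcne3, a potassium channel subunit, had 8.79, 9.36 and 10.77 in DC101 flank, against 6.18, 7.31 and 8.04 in control flank. All 8 controls lay under the filter level, so Kcne3 was at least 2.24-fold higher (fitted difference 2.32, SE 0.41, adjusted p = 1.4e-05). Igfbp3, a growth factor binding protein, rose by 2.22 (SE 0.25, adjusted p = 6.5e-10). Outside the lists, Fam167b was among the largest rises of all genes and at least 2.69-fold higher (4.37, SE 0.50, adjusted p = 8.7e-10), at 8.00, 9.76 and 11.51 in DC101 flank, against 4.77, 5.45 and 6.25 in control flank.

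Arterial, venous and lymphatic genes were called in 1 direction, higher. Among 19 arterial and Notch genes 9 rose and 0 fell (11 higher and 0 lower at an unadjusted p under 0.05), with a median of 0.61. Notch4, the endothelial Notch receptor, rose by 1.76 (SE 0.37), Gja4, the arterial connexin 37, by 1.68 (SE 0.33), and Efnb2, the arterial ephrin, by 1.20 (SE 0.24). Among 19 venous and lymphatic genes 10 rose and 0 fell (11 and 0 unadjusted), with a median of 0.68. Mmrn1, a multimerin of lymphatic endothelium, had 9.97, 11.54 and 13.19 in DC101 flank, against 8.50, 8.87 and 9.13 in control flank (2.67, SE 0.49, adjusted p = 2e-05). Nts, the peptide neurotensin found in lymphatic endothelium, rose by 2.37 (SE 0.43), and Prox1, the transcription factor that sets lymphatic identity, was at least 1.05-fold higher (2.11, SE 0.41). All 8 DC101 arrays lay above every control for Mmrn1, Nts and Prox1.

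Mural cells gave a mixed picture. Of 24 pericyte and smooth muscle genes 12 rose and 3 fell, with a median of 0.75. Mcam (CD146) rose by 1.49 (SE 0.32, adjusted p = 0.00021), and the pericyte genes Pdgfrb and Rgs5 rose by 1.19 and 1.0. The 3 falls were contractile or filament genes, Des (-1.96), Lmod1 (-1.79) and Smtn (-0.58). Lmod1, a nucleator of smooth muscle actin filaments, lay below every control on 8 of 8 DC101 arrays, at 7.31, 8.76 and 9.24 in DC101 flank, against 9.38, 10.48 and 10.93 in control flank (adjusted p = 0.0014). Des, desmin, is shared with skeletal muscle and was highest on array 72, at 15.52. With the 3' to 5' ratios as covariates Lmod1 (-1.12, adjusted p = 0.088) and Smtn (-0.45, adjusted p = 0.19) were not called.

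**Figure D3:**
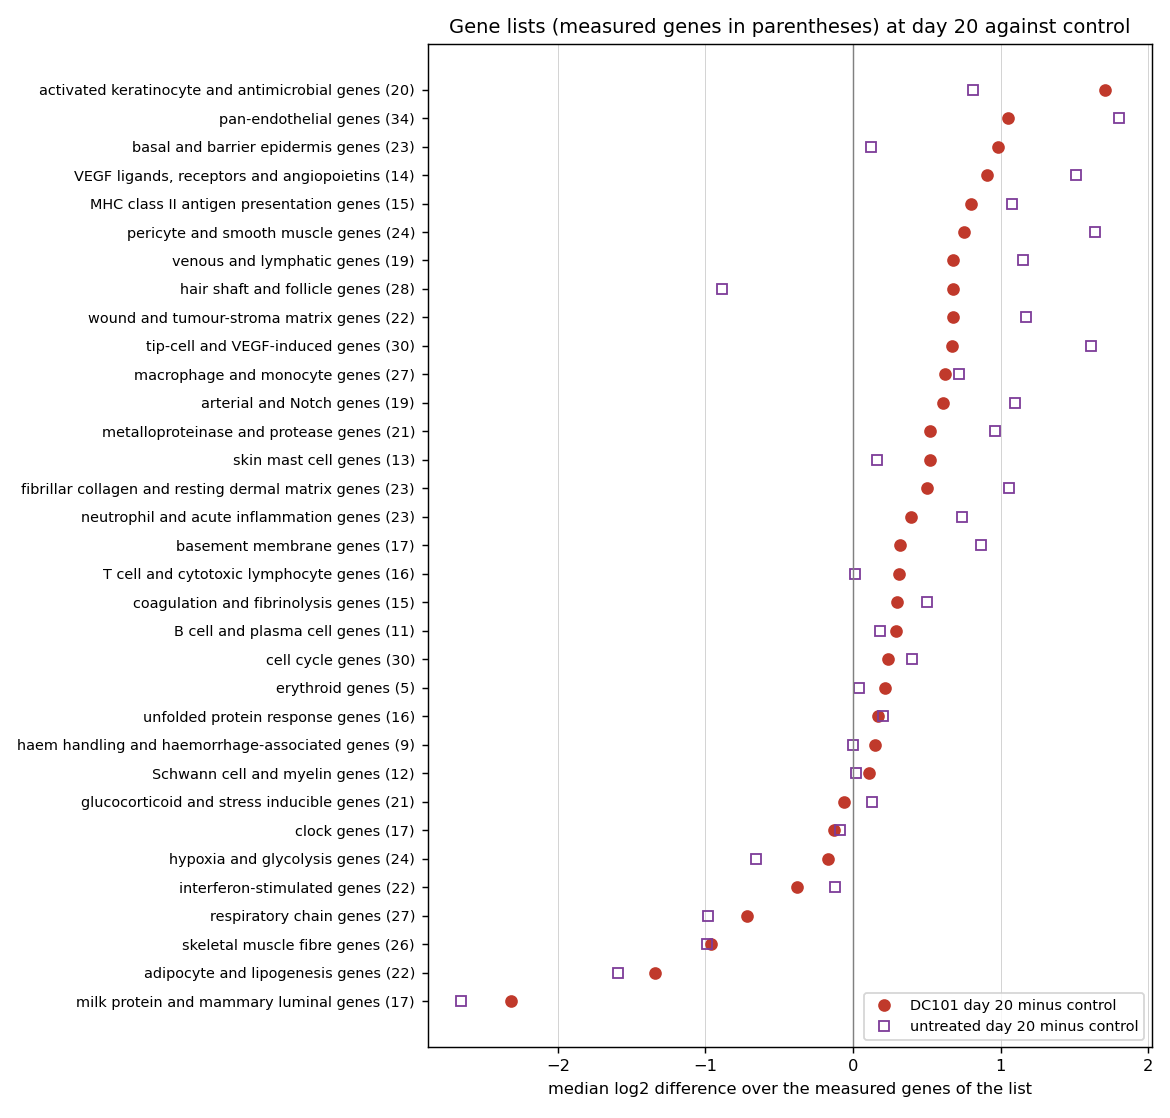
Median log2 difference over the measured genes of each of the 33 gene lists for DC101 minus control (filled circles) and untreated minus control (open squares), both at day 20 and both against the same 8 control arrays. The DC101 medians run from -2.32 (milk protein and mammary luminal genes) to 1.71 (activated keratinocyte and antimicrobial genes), against 0.06 over all genes.

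Matrix genes rose with the vessels. Mfap4, a microfibril protein, was the largest rise among named genes, at 7.56, 11.42 and 13.33 in DC101 flank, against 5.47, 5.80 and 8.43 in control flank, at least 4.99-fold (4.61, SE 0.90, adjusted p = 5.8e-05). Its 2 lowest DC101 arrays overlapped control array 97, the array at 8.43. Cpz, a carboxypeptidase of the Wnt pathway, was at least 2.10-fold higher (4.39, SE 0.53), and Hapln1, the link protein of hyaluronan and proteoglycan, at least 1.35-fold (3.15, SE 0.57). Both lay above every control on 8 of 8 DC101 arrays. Of 22 wound and tumour-stroma matrix genes 10 rose and 0 fell (14 and 0 at an unadjusted p under 0.05), with a median of 0.68, among them Cthrc1 (1.93, SE 0.32), Col8a1 (1.60, SE 0.45) and the collagen cross-linking enzyme Lox (1.31, SE 0.28). Of 23 fibrillar collagen and resting dermal matrix genes 13 rose and 0 fell (14 and 0 unadjusted), with a median of 0.50. Basement membrane genes rose at only 4 of 17 with 0 falls (6 and 0 unadjusted), beside 15.2% of all genes called higher, with a median of 0.32. Those that rose included the collagen IV chains Col4a1 (0.99, SE 0.23) and Col4a2 (0.97, SE 0.27) and the matrix glycoprotein Sparc (0.75, SE 0.15). Another probe set of Col8a1 (0.24, adjusted p = 0.75) and of Sparc (0.11, adjusted p = 0.7) was not called, while a further one of each was (1.2 and 0.75). Itgbl1, an integrin beta-like matrix protein, rose by 2.34 (SE 0.31, adjusted p = 5.1e-08).

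Matrix-degrading enzymes rose at 11 of 21 metalloproteinase and protease genes and fell at 1, Mmp9 (-0.68), with a median of 0.52. Mmp12, whose promoter window is printed above, had 8.94, 9.92 and 10.78 in DC101 flank, against 5.30, 5.91 and 7.12 in control flank, at least 2.82-fold higher (3.88, SE 0.53, adjusted p = 9.6e-08). All 8 DC101 arrays stood above every control. Ctsk, the collagen-degrading cathepsin K, rose by 2.17 (SE 0.33), and the collagenase Mmp13 by 2.03 (SE 0.51, adjusted p = 0.0015). With the 3' to 5' ratios as covariates Mmp13 (1.49, adjusted p = 0.055) and Mmp9 (-0.44, adjusted p = 0.3) were not called.

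Myeloid and antigen presentation genes rose together. Of 27 macrophage and monocyte genes 13 rose and 0 fell (16 and 0 at an unadjusted p under 0.05), with a median of 0.62, and 8 rose when only these 2 groups were fitted. Mpeg1 (perforin-2) had 11.33, 12.02 and 12.58 in DC101 flank, against 10.24, 10.65 and 11.55 in control flank (1.3, SE 0.24, adjusted p = 2.1e-05), and Ccr2, the chemokine receptor of monocytes, rose by 1.49 (SE 0.35). Other Ccr2 probe sets were at 0.89 (adjusted p = 0.0075), 0.64 (adjusted p = 0.058) and 0.41 (adjusted p = 0.16). Of 15 MHC class II genes 10 rose and 0 fell (12 and 0 unadjusted), with a median of 0.80. H2-Aa, a class II chain, rose by 1.58 (SE 0.30, adjusted p = 3.6e-05), and Cd207 (langerin), the marker of Langerhans cells that the list also holds, rose by 2.06 (SE 0.42, adjusted p = 0.0001). Beside this, 3 of 16 T cell genes rose, Cd28 (1.45), Cd4 (1.06) and Cd8a (0.33), with a median of 0.31, a share near the 15.2% of all genes called higher. Cd4 and Cd8a were not called with the covariates (adjusted p = 0.074 and 0.16), and another Cd8a probe set was at -0.09 (adjusted p = 0.78). Mast cell genes rose at 5 of 13, with Hdc, the histamine-forming enzyme, at least 1.05-fold higher (1.45, SE 0.38), and fell at 1, Kit (-0.59).

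Inflammation genes did not move as a block. Of 23 neutrophil and acute inflammation genes 4 rose and 2 fell, with a median of 0.39. The share that rose was near the 15.2% of all genes called higher. S100a8 had 13.13, 14.67 and 16.17 in DC101 flank, against 11.02, 11.73 and 12.64 in control flank (2.73, SE 0.60, adjusted p = 0.00035), and S100a9 rose by 3.14 (SE 0.77, adjusted p = 0.0011). These calgranulins are made by neutrophils and by activated keratinocytes. Saa3, an acute phase protein, rose by 1.78 (SE 0.46), while Lcn2 and Mmp9 of the same list fell (-1.68 and -0.68). Interferon-stimulated genes fell at 6 of 22 with 0 rises (9 lower and 2 higher at an unadjusted p under 0.05), with a median of -0.38. Oasl2 (-1.08), Ifit1 (-1.02) and Ifit3 (-0.94) led these, each with overlapping groups. With the 3' to 5' ratios as covariates Saa3 was not called (1.15, adjusted p = 0.1) and 0 of the 22 interferon-stimulated genes were, and 3 fell when the 2 groups were fitted alone.

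Epidermal genes gave the highest list median. Of 20 activated keratinocyte and antimicrobial genes 14 rose and 0 fell (17 and 0 at an unadjusted p under 0.05), with a median of 1.71. Krt6b, a keratin of wounded and hyperproliferating epidermis, had 12.19, 13.70 and 15.29 in DC101 flank, against 8.38, 9.78 and 12.76 in control flank (3.53, SE 0.74, adjusted p = 0.00017). The defensins Defb3 (4.03, SE 1.20, adjusted p = 0.0074, at least 3.44-fold) and Defb6 (3.06, SE 0.56) lay above every control on all 8 DC101 arrays, and the stefin Stfa3 rose by 3.88 (SE 0.88). Krt2, a keratin of terminally differentiating epidermis, had 9.56, 13.71 and 15.70 in DC101 flank, against 7.53, 8.04 and 11.28 in control flank (4.34, SE 0.95, adjusted p = 0.00029). Of 23 basal and barrier epidermis genes 11 rose and 0 fell (15 and 0 unadjusted), with a median of 0.98. Krt5, the basal keratin, rose by 0.98 (SE 0.37, adjusted p = 0.037), and Krtdap and Krt1 of the differentiated layers by 2.57 (SE 0.45) and 2.52 (SE 0.68). With the 3' to 5' ratios as covariates these counts were 5 of 20 and 4 of 23, and Krt5 and Defb3 were not called (adjusted p = 0.25 and 0.091). The Krt5 call was lost in 11 of 25 alternatives, 10 of them with 1 array left out. In untreated flank against control these rises were smaller. The activated keratinocyte list had 10 genes higher, 1 lower and a median of 0.81 there. The basal and barrier list had 7 higher, 0 lower and a median of 0.12. Hair shaft and follicle genes had a median of 0.68, with 2 of 28 called, both higher, and 8 higher when only these 2 groups were fitted.

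**Figure D4:**
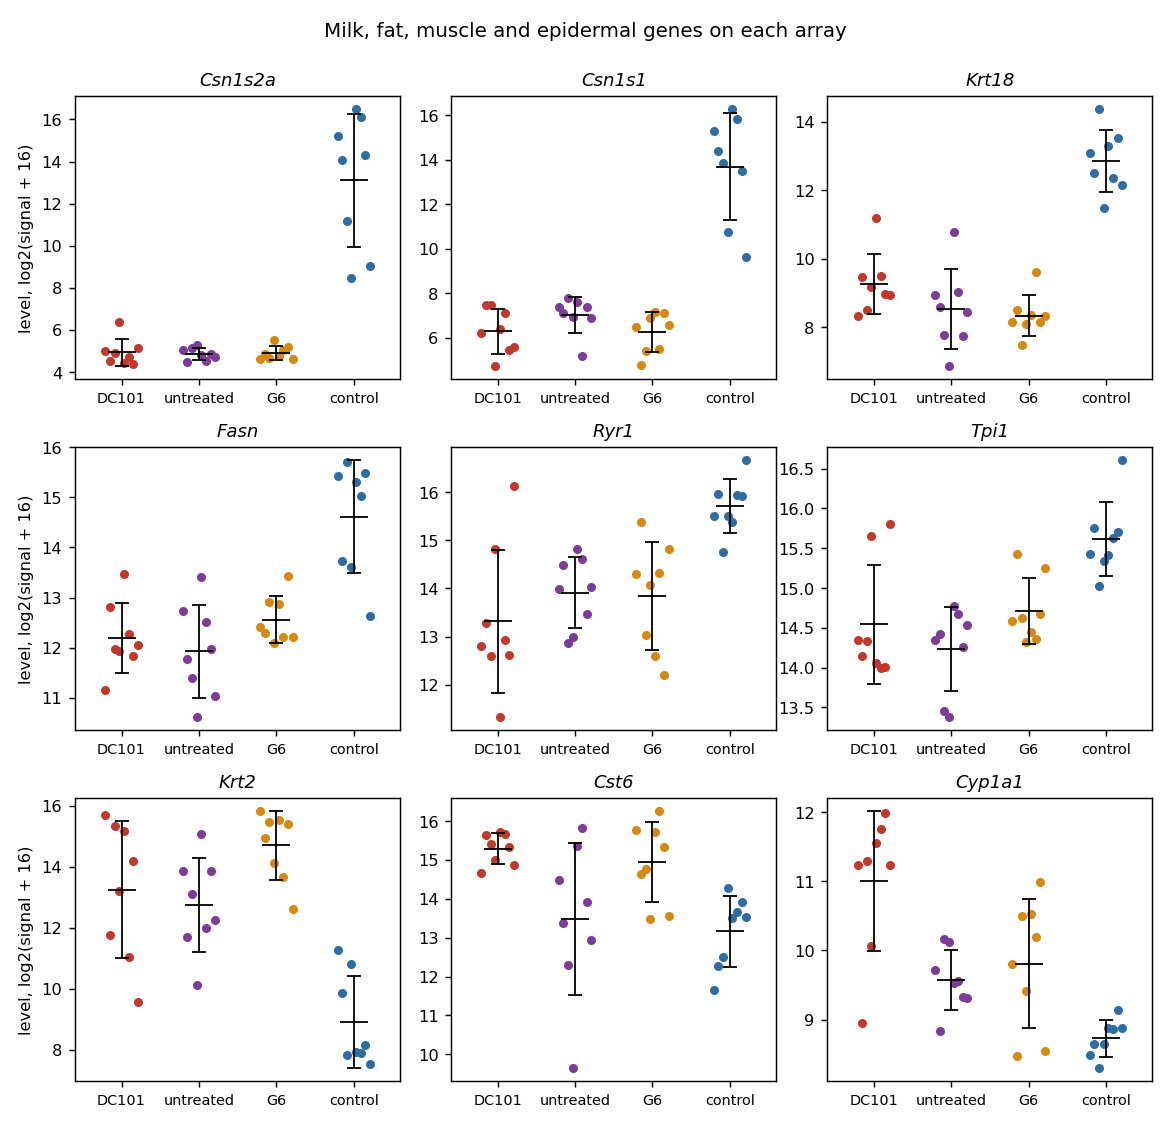
Level, log2(signal + 16), of milk (Csn1s2a, Csn1s1), luminal (Krt18), fat (Fasn), muscle (Ryr1), glycolysis (Tpi1) and skin (Krt2, Cst6, Cyp1a1) genes on each array, in the same layout and groups as the plot of vessel genes, with mean and SD (n = 8 each). Both caseins reach at most 7.47 on the 8 DC101 arrays, against 8.45 to 16.5 on control arrays, and Ryr1 reaches the control range on 2 DC101 arrays.

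The deepest falls were in milk protein and mammary luminal genes, at 12 of 17 with 0 rises (13 lower and 0 higher at an unadjusted p under 0.05) and a median of -2.32. Csn1s2a had 4.40, 4.80 and 6.36 in DC101 flank, against 8.45, 14.18 and 16.50 in control flank, at least 25.4-fold lower (-8.18, SE 0.56, adjusted p = 8.9e-19). Csn1s1 had 4.73, 6.29 and 7.47 in DC101 flank, against 9.62, 14.14 and 16.29 in control flank, at least 38.3-fold lower (-7.40, SE 0.60, adjusted p = 1.6e-15). Without the filter on dim probe sets another Csn1s2a probe set, above the filter level on only 5 arrays of the series, took its place and was not called (-0.31, adjusted p = 0.34), while the second probe set that passed the filter fell by 7.7. The caseins ranged widely among the controls themselves, where the 2 lowest arrays for Csn1s2a stood at 8.45 and 9.04. The low level was not particular to DC101 or to day 20. Mean Csn2 was 7.54 to 8.15 in every virus group of the series, at days 5, 20 and 60, against 13.14 (SD 2.73) in control. Csn2 fell by 5.09 (SE 0.49), Csn3 by 4.33 (SE 0.46) and the whey protein gene Lalba by 3.32 (SE 0.49), though no DC101 array of Lalba lay below every control. Genes of luminal epithelium fell with them: the keratins Krt18 (-3.59, SE 0.54) and Krt8 (-3.47, SE 0.39), the transcription factor Foxa1 (-3.66, SE 0.51), the coregulator Cited1 (-4.47, SE 0.43), the water channel Aqp5 (-3.63, SE 0.50) and the progesterone receptor Pgr (-2.07, SE 0.44). Cldn7, a tight junction claudin, fell by 2.17 (SE 0.29). The mean level of the list was 8.35 to 9.51 on DC101 arrays and 10.01 to 12.8 on control arrays.

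Fat genes fell at 16 of 22 with 0 rises (17 lower and 1 higher at an unadjusted p under 0.05), with a median of -1.34. Adipoq, the adipocyte hormone adiponectin, had 12.32, 13.03 and 16.09 in DC101 flank, against 13.82, 15.50 and 16.05 in control flank, and 7 of 8 DC101 arrays lay below every control (-1.94, SE 0.46, adjusted p = 0.00074). The exception, DC101 array 69, was above every control. Fasn, the fatty acid synthase, fell by 2.42 (SE 0.38), Thrsp, a lipogenic regulator, by 2.85 (SE 0.59), Pck1, the glycerol-supplying enzyme of fat, by 2.67 (SE 0.57), and Agpat2, which makes phosphatidic acid for triglyceride, by 2.29 (SE 0.34). Other Thrsp probe sets were at -3.13 (adjusted p = 0.00011) and -0.21 (adjusted p = 0.76). Grb14, an adaptor that restrains the insulin receptor, fell by 2.08 (SE 0.29) with all 8 DC101 arrays below every control. Prtn3, a serine protease, was also among the 12 largest falls (-3.24, SE 0.44, at least 2.63-fold lower).

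Respiratory chain and muscle genes also fell, and the muscle calls depended on the fit. Of 27 respiratory chain genes 25 fell and 0 rose (27 lower and 0 higher at an unadjusted p under 0.05), with a median of -0.72, and 17 fell with the 3' to 5' ratios as covariates. Cox7a1, a subunit of heart and muscle cytochrome oxidase, fell by 2.02 (SE 0.49) and Cox8b by 1.56 (SE 0.50), and neither passed with those covariates (adjusted p = 0.14 and 0.56). Of 26 skeletal muscle fibre genes 11 fell and 0 rose (15 lower and 0 higher unadjusted), with a median of -0.96. Ryr1, the calcium release channel, had 11.33, 12.87 and 16.13 in DC101 flank, against 14.76, 15.72 and 16.67 in control flank (-2.39, SE 0.53, adjusted p = 0.00037). Ampd1 (-2.49, SE 0.62) and Myoz3 (-3.46, SE 0.73; its other probe set -0.04, adjusted p = 0.9) fell likewise, while Acta1, the skeletal actin, was not called (-0.31, SE 0.41, adjusted p = 0.61). The number of muscle genes called lower was 18 without arrays 68 and 72 and 0 with the 3' to 5' ratios as covariates.

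Some glycolysis genes fell, and the lists given after them held few calls. Of 24 hypoxia and glycolysis genes 10 fell and 2 rose, with a median of -0.17. The falls held enzymes of glycolysis, such as hexokinase Hk2 (-1.18, SE 0.23) and triosephosphate isomerase Tpi1 (-1.07, SE 0.22), and the rises were Adm, the vasodilator adrenomedullin (1.71, SE 0.24, adjusted p = 1.8e-07), and Pfkp (0.61; with the covariates 0.30, adjusted p = 0.42). Of 17 clock genes 3 fell, Nfil3 (-0.92), Bhlhe40 (-0.74) and Nr1d1 (-0.71), and 0 rose (3 at an unadjusted p under 0.05), a share near the 15.1% of all genes called lower. With the covariates Nfil3 (-0.71, adjusted p = 0.14) and Nr1d1 (-0.47, adjusted p = 0.12) were not called. Of 21 glucocorticoid and stress genes 4 fell, led by Pdk4 (-1.65) and Zbtb16 (-1.62) and with Klf15 (-1.35) and Jun (-0.65), and Sgk1 rose by 0.55. With the covariates Pdk4 was at -0.69 (adjusted p = 0.29) and Klf15 at -0.73 (adjusted p = 0.14), neither called. Of 16 unfolded protein response genes Atf3 fell (-1.21) and 4 rose by 0.27 to 0.37, Xbp1 among them, and 0 of these 16 were called with the covariates. Of 30 cell cycle genes only Mcm2 (0.94, SE 0.26) and Foxm1 (0.31, SE 0.11) rose and Aurka fell (-0.68, SE 0.16). Another probe set of Mcm2 (-0.36) and of Foxm1 (-0.39) had the opposite sign, and neither was called. None of the 12 Schwann cell, 5 erythroid or 9 haem handling genes was called by limma, with 1, 0 and 0 at an unadjusted p under 0.05. With the covariates the erythroid gene Alas2 (1.85, adjusted p = 0.039) and the Schwann cell gene Pmp22 (0.74, adjusted p = 0.034) were called higher. Coagulation genes rose at 5 of 15, led by the thrombin receptor F2r (2.35), and fell at Vwf, and of 11 B cell genes Xbp1 and Ighm were called. Both had no settled direction, since probe sets of each were called both ways (Xbp1 0.31 and -0.30, Ighm -0.84 and 1.75).

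The direct comparison of DC101 with untreated flank at day 20 shows which of these levels differed between them. Both share the 8 control arrays in their differences from control, so the test of the difference is DC101 minus untreated, in which control drops out. For orientation, untreated flank had 3342 genes called higher than control, 22.7% of those tested, and 2714 lower, 18.4%. Between DC101 and untreated flank 359 genes were called higher, 2.44% of those tested, and 773 lower, 5.25%. The most falls in a list were of endothelial, tip-cell and mural cell genes, and no list of leukocyte, fat or milk genes held more than 1 call. The counts of this comparison depended on which arrays were in the fit. Without untreated arrays 51 and 52, the pair with the highest Vegfa, 57 genes were called higher and 94 lower. Without untreated array 54 they were 661 and 1144, and with only the 2 groups in the fit 14 and 62. Whether calls were lost through the values of the pair or through the smaller number of arrays was not tested.

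Pan-endothelial genes were lower in DC101 than in untreated flank at 16 of 34, with 0 higher (27 and 0 at an unadjusted p under 0.05), and a median of -0.76. Tip-cell and VEGF-induced genes were lower at 15 of 30 (median -0.63), arterial and Notch genes at 10 of 19 (median -0.83), pericyte and smooth muscle genes at 13 of 24 (median -1.01) and basement membrane genes at 10 of 17 (median -0.62). Without untreated arrays 51 and 52 the counts of these 5 lists were 1, 5, 0, 2 and 3, and their medians -0.48, -0.45, -0.61, -0.72 and -0.41. Leaving out DC101 arrays 68 and 72 as well left 0, 3, 0, 0 and 2. Single genes differed in whether the call depended on that pair.

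Kcne3 had 8.79, 9.36 and 10.77 in DC101 flank, against 9.96, 11.88 and 13.41 in untreated flank. By brightest probe sets it had the largest called fall among named genes (-2.14, SE 0.41, adjusted p = 0.0005). It stayed called without arrays 51 and 52 (-1.61, adjusted p = 0.037). Nid2, nidogen 2 of the basement membrane, had 9.65, 10.43 and 11.10 in DC101 flank, against 10.47, 12.10 and 13.49 in untreated flank (-1.67, SE 0.27, adjusted p = 6.6e-05), and remained called without those arrays (-1.23, adjusted p = 0.008). Against control, Nid2 under DC101 was not called (0.58, adjusted p = 0.098), while in untreated flank it was 2.25 higher (adjusted p = 6.7e-10). With the 3' to 5' ratios as covariates Nid2 was called higher under DC101 than in control (0.87, adjusted p = 0.033). Kcna5, a voltage-gated potassium channel, and Actg2, the enteric smooth muscle actin, were also still lower without arrays 51 and 52. Kcna5 was -1.68 in all arrays (adjusted p = 0.00028) and -1.60 without them (adjusted p = 0.0079). Actg2 was -1.81 (adjusted p = 0.0034) and -1.68 (adjusted p = 0.047). Over 27 alternatives the call was lost in 2 for Kcne3, 2 for Actg2, 1 for Nid2 and 0 for Kcna5. Of the genes examined one by one and called against untreated flank, 19 lost the call and 3 kept it with only the 2 groups fitted.

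Other genes lost the call without that pair while keeping the sign. Cd93 had 11.92, 12.74 and 13.85 in DC101 flank, against 12.95, 14.42 and 15.17 in untreated flank (-1.37, SE 0.31, adjusted p = 0.0026; -1.07 and adjusted p = 0.087 without the pair). Mcam was -1.46 (adjusted p = 0.0017; 0.071 without the pair), Pcdh12, a protocadherin of endothelial junctions, -1.73 (0.0029; 0.11), Pgf -1.70 (0.0091; 0.12) and A4galt, the globotriaosylceramide synthase, -1.91 (0.0025; 0.062). Tie1 was -1.36 (0.018; 0.24), Flt4 -1.03 (0.046; 0.4), Notch4 -1.27 (0.023; 0.28), Gja4 -1.12 (0.024; 0.25), Lmod1 -1.36 (0.045; 0.21), Col4a1 -0.83 (0.017; 0.24) and Col4a2 -1.23 (0.0021; 0.087), where the values in parentheses are adjusted p with and without the pair. Other probe sets of Pcdh12 (-0.36, adjusted p = 0.66), Cd93 (-0.71, adjusted p = 0.062), Notch4 (-0.47, adjusted p = 0.073) and Flt4 (-0.65, adjusted p = 0.26) were not called with all arrays. All 8 DC101 arrays lay below the untreated mean for Cd93, Mcam, Pcdh12, Pgf, A4galt and Tie1.

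For a further set of vessel genes the brightest probe set was not called against untreated flank. Flt1 differed by -0.70 (95% interval -1.30 to -0.10, adjusted p = 0.14), Kdr by -0.51 (-1.03 to 0.02, adjusted p = 0.24), Pecam1 by -0.60 (-1.23 to 0.02, adjusted p = 0.24), Esm1 by -0.64 (-1.74 to 0.47, adjusted p = 0.53) and Emcn by -0.53 (-1.18 to 0.13, adjusted p = 0.34). Of the 3 other Flt1 probe sets, however, 2 were called lower (-0.98, adjusted p = 0.045, and -1.01, adjusted p = 0.0086) and 1 was not (-0.50, adjusted p = 0.32), so whether Flt1 was called depends on the probe set. Each of the 5 intervals reaches below -1 on the log2 scale, so they do not show that DC101 and untreated flank were alike. Efnb2 (-0.11, interval -0.60 to 0.38), Adm (-0.12, -0.60 to 0.36) and Igfbp3 (-0.36, -0.86 to 0.14) were not called either.

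Genes of milk, fat, macrophages and antigen presentation, which were called in DC101 flank against control, were not called against untreated flank. Among genes that changed at least 4-fold in untreated flank, 278 with named symbols, those with the smallest difference between DC101 and untreated flank are given as a description, since that difference chose them. They included Grb14 (-0.01), Pgr (0.02), Agpat2 (-0.02), Itgbl1 (-0.03), Cd207 (0.04) and Cldn7 (-0.05). Csn1s2a differed from untreated flank by 0.06 (95% interval -1.06 to 1.19), Cpz by -0.06 (-1.12 to 1.0) and Mmp12 by 0.37 (-0.68 to 1.42), and none was called. The 27 macrophage, 23 neutrophil, 15 MHC class II, 22 fat, 17 milk and 26 muscle genes had 0 calls in either direction in limma. At an unadjusted p under 0.05 they had 3, 1, 0, 3, 3 and 0.

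A smaller set was higher in DC101 than in untreated flank. Cyp1a1, the aryl hydrocarbon receptor target that oxidises xenobiotics, had 8.95, 11.26 and 11.99 in DC101 flank, against 8.84, 9.55 and 10.16 in untreated flank (1.44, SE 0.29, adjusted p = 0.00087), and 6 DC101 arrays stood above every untreated array. It stayed called without arrays 51 and 52 (1.63, adjusted p = 0.0042) and was 2.28 above control (adjusted p = 2.5e-08). Cst6, an epidermal cysteine protease inhibitor, was higher by 1.81 (SE 0.48, adjusted p = 0.011), and not called without the pair (0.97, adjusted p = 0.31). Tchh, trichohyalin of the hair root sheath, was higher by 2.41 (adjusted p = 0.021; 0.52 and adjusted p = 0.7 without the pair). Pon1, paraoxonase, was higher by 2.04 (adjusted p = 0.018; 1.66 and adjusted p = 0.2 without the pair). Idi2, an isopentenyl diphosphate isomerase, had the largest called rise among named genes by brightest probe sets, 4.59 (SE 1.41). Its adjusted p was 0.032 with the pair and 0.23 without it. Among 27 respiratory chain genes 5 were higher and 0 lower (12 and 0 unadjusted), against 0 and 0 without the pair. Hair shaft and follicle genes had a median of 1.76, with 1 of 28 called higher and 0 lower (24 and 0 unadjusted). Arrays 51 and 52 had the lowest untreated means of that list, 7.6 and 7.58. Activated keratinocyte genes had a median of 0.71, with 2 of 20 higher and 0 lower (6 and 0 unadjusted). Basal and barrier genes had a median of 0.56, with 1 of 23 higher and 0 lower (10 and 0 unadjusted).

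DC101 and G6 flank at day 20 differed at 16 genes called higher, 0.109% of those tested, and 20 called lower, 0.136%. With these 2 groups alone in the fit limma called 0 in either direction, though 745 were higher and 806 lower at an unadjusted p under 0.05, and with array weights 286 and 307 were called. Aplnr, the apelin receptor, was among those higher under DC101. It had 13.49, 14.33 and 15.11 in DC101 flank, against 11.81, 13.08 and 13.99 in G6 flank (1.39, SE 0.30, adjusted p = 0.02), above the G6 mean on 8 of 8 arrays. Btnl9, a butyrophilin-like gene, was higher by 1.44 (adjusted p = 0.049) and Adm by 1.05 (adjusted p = 0.032). Cyp1a1 was higher by 1.20 (adjusted p = 0.049) and Alas2, the haem-forming enzyme of red cells, by 2.50 (adjusted p = 0.049). Among the falls, Cdhr1, a photoreceptor cadherin, was 1.77 lower on the log2 scale (-1.77, adjusted p = 0.032) and Bcl3, an NF-kappa-B cofactor, 0.90 lower (-0.90, adjusted p = 0.018).

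The brightest probe sets of the vessel receptors were not called between the 2 antibodies. Kdr differed by 0.92 (95% interval 0.40 to 1.45, adjusted p = 0.092), Flt1 by 0.85 (0.25 to 1.45, adjusted p = 0.18), Cd93 by 0.34 (-0.27 to 0.96, adjusted p = 0.68) and Kcne3 by -0.10 (-0.93 to 0.72, adjusted p = 0.95). Of 20 activated keratinocyte and antimicrobial genes 0 were called between the antibodies, but 12 were lower and 0 higher under DC101 at an unadjusted p under 0.05. Their median difference between the antibodies was -1.3. Against control it was 1.71 under DC101 and 2.45 under G6. Doses of the antibodies differed, 20 mg per kg of DC101 and 10 mg per kg of G6.

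Within the 8 DC101 arrays, vessel genes were set against Vegfa array by array, 6 relations in all. Pearson's r with Vegfa was 0.94 for Esm1 (exact permutation p = 0.0014, adjusted 0.0083; Spearman's rho 0.95, p = 0.0011), 0.89 for Kdr (p = 0.0032, adjusted 0.0096; rho 0.88, p = 0.0072) and 0.82 for Flt1 (p = 0.012, adjusted 0.024; rho 0.71, p = 0.058), all exact and two-sided. Kcne3 had r of 0.78 (exact permutation p = 0.024, adjusted 0.032; rho 0.88, p = 0.0072), Cd93 0.76 (exact p = 0.027, adjusted 0.032; rho 0.67, p = 0.083) and Apln -0.20 (exact p = 0.63, adjusted 0.63; rho -0.19, p = 0.66). Without arrays 66 and 67, the farthest from the median of Vegfa, r was 0.84 for Esm1, 0.71 for Kdr, 0.56 for Flt1, 0.78 for Kcne3, 0.45 for Cd93 and 0.18 for Apln, with adjusted exact permutation p of 0.19 to 0.77. None then passed with 6 arrays left. For Kcne3 r was the same without those 2 arrays, and for Esm1, Kdr, Flt1 and Cd93 it was lower.

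**Figure D5:**
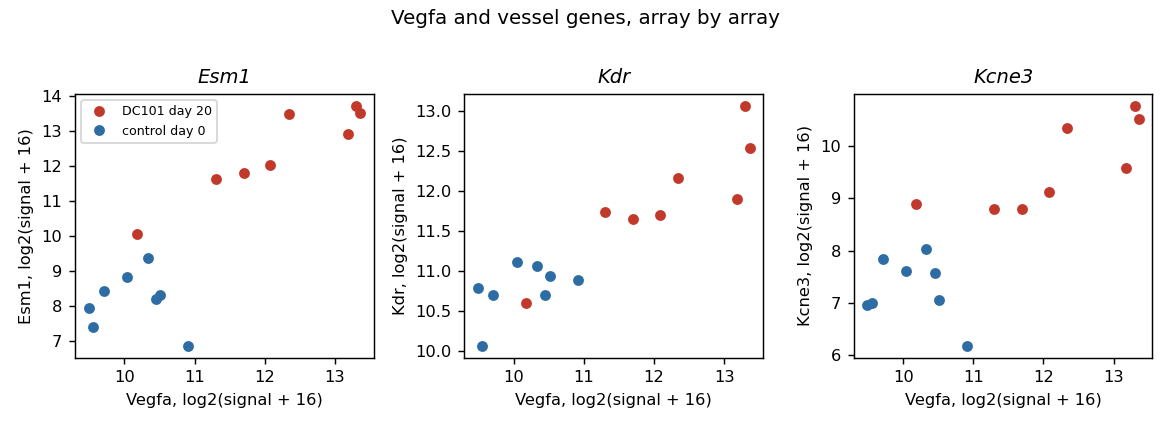
Esm1, Kdr and Kcne3 against Vegfa on each of the 8 DC101 day 20 arrays and the 8 control day 0 arrays, all as log2(signal + 16). Over the DC101 arrays alone r is 0.94, 0.89 and 0.78 for the 3 genes, and DC101 array 66, at a Vegfa of 10.18, lies among the controls on the Vegfa axis.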

How the data were processed

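Flank tissue RNA was hybridised to 78 Affymetrix Mouse Genome 430 2.0 arrays. The authors deposited a MAS5 signal intensity for each probe set, not log-transformed, and the submitters' processing notes name MAS5 and GCOS 1.3. The mean over the middle 96% of probe sets was 1500 on every array. Groups came from the labels. Of 45101 probe sets, 34958 carry 1 gene symbol in the platform annotation, 932 several and 9211 are unnamed here. Symbols matched the RefSeq table by Entrez ID for 34754. Probe sets over a signal of 331.2, the 40th percentile, on at least 6 arrays were kept, and the brightest of each gene gave 14718 genes. From log2(signal + 16), limma 3.58.1 in R 4.3.3 (lmFit, eBayes with trend, 10 groups) gave two-sided tests with Benjamini-Hochberg adjustment at 0.05. Correlations used exact permutation in scipy 1.17.1.

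Members, the 33 gene lists and the tests were chosen with earlier results of these data known. The named genes are 10 fixed genes (among them Vegfa, Kdr, Pecam1, Krt5, Adipoq and Acta1), the 12 largest called rises and falls against control, the 3 largest called changes of each list, the 8 largest called rises and falls against untreated and G6 flank, and, among genes changed at least 4-fold in untreated flank, the 8 closest to and 8 farthest from untreated. Clone and predicted genes were passed over. Other list members are given where a count is small and were chosen after their values were seen. No 2 arrays were identical (highest r 0.98). On simulated data of this comparison, over 14718 genes, the model recovered 35% of genes changed by 0.5 log2 and 73% of those changed by 1, with 3 false calls among 111. Whether these rates hold where 2244 genes are called higher and 2220 lower, as on the measured arrays, was not tested. Whether they hold with tissue of 1 animal on more than 1 array was not tested either. The number of arrays limits the precision.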

Additional observations from a re-analysis of the deposited data

Results flagged for a closer look

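Single arrays were examined in 324 groups of 8 for 108 genes, and in 21 of them the highest or lowest array stood farther from the others than Dixon's 95% limit; chance alone gives about 1 in 20 such groups. DC101 array 69 was the highest of its group for the fat genes Adipoq (16.09, against 12.32 to 13.57 on the other 7 arrays), Thrsp (14.15, against 10.60 to 11.73), Pck1 (11.63, against 7.36 to 8.93) and Agpat2 (11.70, against 10.08 to 10.66), and for the luminal keratins Krt18 (11.20, against 8.32 to 9.51) and Krt8 (10.71, against 8.45 to 9.35). All 6 genes still fell against control with array 69 in the group. DC101 array 72 was lowest for Cpz (6.28, against 9.20 to 10.65), array 68 was highest for Csn1s2a (6.36, against 4.40 to 5.16), and array 65 was highest for Pgr (12.15, against 8.96 to 10.32). Among untreated arrays, 54 was lowest for Aplnr (14.26) and Csn1s1 (5.19), 49 was lowest for Kcna5 (8.11) and 53 was highest for Agpat2 (11.63). Control array 98 was lowest for Kdr (10.06) and Pcdh12 (6.78), and the control array with the highest running number was lowest for Cthrc1 (8.57) and highest for Acta1 (17.06) and Tpi1 (16.61). Control array 97 was highest for Mfap4 (8.43), array 95 for Mpeg1 (11.55) and array 100 for Mcm2 (11.68). The part of these arrays in the results was not tested beyond leaving out each array in turn, leaving out DC101 arrays 68 and 72 together, and weighting the arrays.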

How the results depend on the processing

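Of the DC101 against control calls, 2244 higher and 2220 lower, the counts ranged over 1673 to 2904 and 1847 to 2496 when each array of the groups was left out in turn. They were 1284 and 1191 with the Actb and Gapdh 3' to 5' ratios as covariates, and 468 and 555 at a 2-fold minimum. Untreated against control gave 800 and 745 at 2-fold, and 2803 to 3445 and 2423 to 2801 with single arrays left out. DC101 against untreated ranged over 146 to 661 higher and 332 to 1144 lower with single arrays left out. The extremes were 146 and 332 without untreated array 52, 156 and 344 without 51, and 661 and 1144 without 54. DC101 array 69 (223 higher) and untreated arrays 53 (545) and 56 (231) also moved the count of 359 by over 1.5 times. Array weights gave 572 higher, the covariates 495 lower, only the 2 groups 14 and 62, the 2-fold minimum 37 and 121, arrays 51 and 52 left out 57 and 94, arrays 68 and 72 left out 480 lower, and all 4 left out 40 and 55. The last 2 settings were chosen after seeing the data. DC101 against G6 (16 and 20) ranged over 1 to 65 and 0 to 112 with single arrays left out, with 1 and 0 without G6 array 63 and 65 and 112 without 64. Leaving out any of DC101 arrays 66 to 70 or G6 arrays 57 and 59 to 64 moved at least 1 of these counts by over 1.5 times. It gave 9 higher without the filter, 27 higher after quantile normalization, 4 and 11 with probe sets averaged per gene, 286 and 307 with array weights, 42 and 44 with the covariates, 0 and 0 in limma with only the 2 groups (745 and 806 unadjusted), 7 and 3 at 2-fold, and 33 lower without arrays 68 and 72. The cause of these moves was not tested, except that a 2-fold minimum removes calls by construction. Vegfa reversed by its other probe set (-1.19, adjusted p = 5.6e-07), Mcm2 likewise (-0.36), and Foxm1 by its other probe set (-0.39) and by the mean of its probe sets (-0.04). Xbp1 (-0.30, adjusted p = 0.028) and Ighm (1.75, adjusted p = 0.0002) also reversed, with further probe sets of Xbp1 at -0.08 and -0.03, of Ighm at 1.0, 0.54 and 0.3, of Cd8a at -0.09 and of H2-DMb2 at -0.02. Of 65 other probe sets of 39 named genes called against control, 44 had the same sign and passed, 9 had the same sign and did not pass, 9 had the opposite sign and did not pass, and 3 (Vegfa, Xbp1 and Ighm) had the opposite sign and passed. Of 11 other probe sets of 8 named genes called against untreated flank, 5 passed and 6 did not, all with the same sign. Of the 97 genes examined one by one and called against control, 21 were not called with the 3' to 5' ratios as covariates, and 0 changed sign. No paired analysis was possible because the running numbers of the arrays are not shared between groups.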
